A study of Homo sapiens with 12 samples.

Results

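The 2 libraries of line 1 in which HKDC1 had been put back after knockout (KO1_RES, called rescue) were set against the 2 knockout libraries of the same line (KO1). These 4 libraries, of 12 in the study, were chosen by sample title alone. All were made from PLC/PRF/5, an epithelial human hepatoma cell line, by sequencing stranded mRNA libraries, and counts of reads per gene were analysed. The remaining groups were rescue (KO2_RES) and knockout (KO2) libraries of a line 2, with 2 libraries each, and 4 wild-type control libraries. Rescue cells carry the HKDC1 knockout of their line as well as the restored gene. The labels state neither the edit, the construct or promoter that restored HKDC1, whether knockout cells received an empty vector, whether a line is 1 clone, nor the oxygen level. They also do not say that the libraries came from separate cultures, so that p-values speak only of the spread between these libraries, and that spread may be technical.

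HKDC1 is a member of the hexokinase family, whose enzymes trap glucose in the cell by phosphorylating it. The series title names liver cancer stemness and beta-catenin, and comparing rescue with knockout asks which expression changes go with the added HKDC1 mRNA. Of the 76 genes that passed, 5 belong to the list of intestinal and mucus-secreting epithelium, which was chosen with earlier results known. In the gut, CDH17 (liver-intestine cadherin) joins neighbouring enterocytes, KRT20 forms their keratin filaments, AGR2 is a disulfide isomerase that helps mucins fold, and TFF1 is a small peptide secreted with mucus. Hepatoma cells can express several of these genes beside hepatocyte genes such as ALB and APOB.

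Gene counts summed to 52077899 and 36075411 reads in the rescue libraries of line 1, against 63732831 and 42609910 in its knockout libraries. The line 2 libraries held between 52511563 and 68040103 reads and the controls between 57333288 and 71853616. Levels are given as CPM, read counts scaled by library total and TMM factor, and 3 reads, taken as the floor, were worth 0.0407 to 0.0848 CPM depending on the library. It allows for counting error alone, because reads that carry no molecular identifier can be copies of 1 molecule. All 9 hepatoma markers checked, among them ALB, APOB, HNF4A and KRT18, were above the floor in line 1. Their sum was 19600 to 34030 CPM in rescue and 16740 to 28110 CPM in knockout, mostly APOB.

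The genotype field of the labels contradicts the title of 1 rescue and 1 knockout library in each line. It calls KO1_RES number 1 a knockout and KO1 number 2 a rescue. HKDC1 mRNA (ENSG00000156510.11, chromosome 10) followed the titles: it was at 1240 and 1544 CPM in rescue libraries 1 and 2 of line 1, against 153 and 146 CPM in knockout libraries 1 and 2. Both rescue libraries were far above both knockouts, with log2 3.23 (SE 0.30) and an adjusted p = 0.0115 (edgeR's quasi-likelihood test). Leaving out any 1 library of line 1 gave 3.05 to 3.38, past the threshold in none of these fits. In line 2 it was at 508 and 622 CPM in rescue, against 91.4 and 49.2 CPM in knockout (log2 3.01, SE 0.30). Controls held 124 to 184 CPM, so that rescue of both lines lay far above the control range, and higher in line 1 than in line 2. The mRNA of the line 1 knockout lay inside the control range and cannot check the knockout label.

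**Figure D1:**
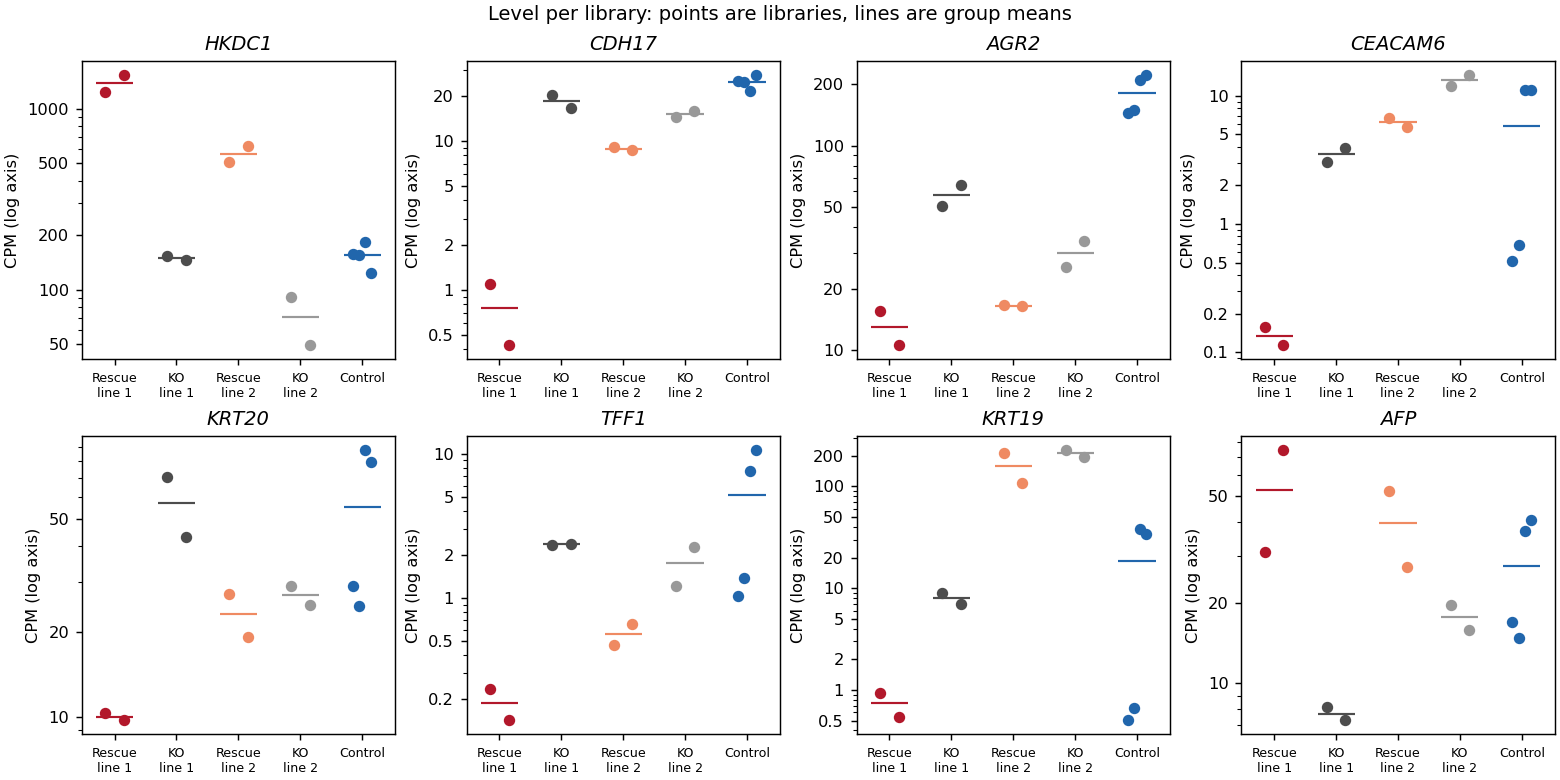
HKDC1 and 7 genes that changed in line 1, in CPM on log axes; points are libraries and horizontal lines are group means, for rescue and knockout of line 1, rescue and knockout of line 2, and control. Both rescue libraries of line 1 sit above both knockouts for HKDC1 and AFP and below both for the other 6 genes, and for all of them but HKDC1 the gap between rescue and knockout is visibly narrower in line 2.

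Promoter sequences of 3 intestinal genes that fell together are shown because these genes carry the main result. Each is the 250 bases before the RefSeq start on GRCh38.p14, 5′ to 3′ on the gene's strand: chr19:41755280-41755529 (+) for CEACAM6, chr17:40885243-40885492 (−) for KRT20 and chr7:16805000-16805249 (−) for AGR2. Capitals mark matches to TATAAA or CACGTG.
CEACAM6: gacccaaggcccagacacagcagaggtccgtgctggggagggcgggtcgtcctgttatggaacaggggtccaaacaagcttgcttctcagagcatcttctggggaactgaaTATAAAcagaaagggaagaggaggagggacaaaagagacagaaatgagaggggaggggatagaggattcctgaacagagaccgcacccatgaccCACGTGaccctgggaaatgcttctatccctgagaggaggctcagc
KRT20: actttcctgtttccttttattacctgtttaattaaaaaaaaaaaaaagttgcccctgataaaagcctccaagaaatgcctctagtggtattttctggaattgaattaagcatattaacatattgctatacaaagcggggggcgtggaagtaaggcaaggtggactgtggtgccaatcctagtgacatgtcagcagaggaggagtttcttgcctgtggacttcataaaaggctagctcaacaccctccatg
AGR2: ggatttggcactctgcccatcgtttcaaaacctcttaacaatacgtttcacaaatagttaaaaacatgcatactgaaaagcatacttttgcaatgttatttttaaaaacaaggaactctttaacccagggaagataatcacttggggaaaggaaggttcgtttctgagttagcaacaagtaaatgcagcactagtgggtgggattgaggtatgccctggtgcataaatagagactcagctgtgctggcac
Searched on both strands, with a window counted once however its matches overlap, TATAAA was present in 4 of the 39 promoters on hand for genes that fell (10.3%) and in 6.03% of 12468 promoters of all tested genes. The E-box CACGTG was in 5 of the 39 (12.8%) and in 8.61% of all. TGAGTCA, the letters bound by AP-1, was in 1 of the 39 (2.56%) and in 2.65% of all, and TGTTTAC, a forkhead motif, in none and in 1.94% of all. Of the 10 promoters on hand for genes that rose, TATAAA was in 1 (AFP) and CACGTG in 1 (GUCY1A2). These counts describe letters in a window and no binding.

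In line 1, 76 of 19766 genes tested (0.384%) passed an adjusted p of 0.05. Rescue was higher for 14 genes (0.0708%) and lower for 62 (0.314%). The libraries of the groups overlapped for none of the 76 and for 11793 of all 19766. The 76 were chosen by these same libraries, so their separation is no further support. The falls were steep: 61 of 62 were at least 1 on the log2 scale, with a median of -2.03, against 0.001 over all genes tested. Library numbers paired the samples within each line, and with line and number as a block 675 genes passed (3.41%), 155 higher (0.784%) and 520 lower (2.63%), with all 76 among them. Without the block, the count depended on single libraries of both lines: 1 gene passed without knockout 1 (CEACAM6), 2 without rescue 1 (CDH17 and SYT13), 26 without knockout 2 and 1 without rescue 2 (CDH17) of line 1. The same line 1 count was lower without either knockout library of line 2 and higher without either rescue library of line 2. Groups taken from the genotype field instead of the titles set the libraries numbered 2 against those numbered 1, and 0 genes passed. Each side then held 1 rescue and 1 knockout library, so this fit is no test of rescue.

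Intestinal and secretory genes were among the steepest falls. CDH17 (ENSG00000079112.5) was at 1.10 and 0.424 CPM in rescue libraries 1 and 2, against 20.4 and 16.6 CPM in knockout libraries 1 and 2. Every rescue library lay far below every knockout, and the ratio of means was 24.3 knockout over rescue (log2 -4.54, SE 0.36, adjusted p = 0.00526). CEACAM6 (ENSG00000086548.8), an adhesion molecule of the carcinoembryonic antigen family, was at 0.157 and 0.113 CPM in rescue, a handful of reads, against 3.07 and 3.94 CPM in knockout (log2 -4.63, SE 0.33, adjusted p = 0.00526). TFF1 (ENSG00000160182.2) was likewise close to the floor in rescue, at 0.235 and 0.141 CPM, against 2.34 and 2.38 CPM in knockout (log2 -3.59, SE 0.47, adjusted p = 0.0245). KRT20 (ENSG00000171431.3) and AGR2 (ENSG00000106541.7) stayed expressed at lower levels. KRT20 was at 10.3 and 9.70 CPM in rescue, against 70.6 and 43.2 CPM in knockout (log2 -2.50, SE 0.27, adjusted p = 0.0122). AGR2 was at 15.5 and 10.6 CPM in rescue, against 50.7 and 64.1 CPM in knockout (log2 -2.12, SE 0.23, adjusted p = 0.0122). In bulk RNA, fewer cells that express a gene and less RNA per cell cannot be told apart.

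Of the 31 genes of the intestinal and secretory list, 22 were abundant enough to test, 0 passed higher and 5 passed lower, the 5 just given. The block added FABP1 (a fatty acid binding protein of gut and liver), MUC13, CEACAM1, TFF2, S100P and MUC2, making 11 lower and 0 higher. The list median was -1.06 in line 1 and -0.26 in line 2, and in line 1 the log2 fold change was negative for 18 members and positive for 3. Abundant members that passed in neither fit included VIL1, at 159 and 176 CPM in rescue, against 217 and 220 CPM in knockout (log2 -0.37). TM4SF4 (0.17) and TM4SF5 (0.31) did not pass either. CDH17 and AGR2 were known as markers of this contrast beforehand; the 20 other tested members had 3 lower calls, 9 with the block, and a median of -0.89. Of the list's transcription factors none passed in either fit. SPDEF, a factor of secretory cells, was at 0.098 and 0.113 CPM in rescue, near the floor, against 0.544 and 0.35 CPM in knockout (log2 -2.08, adjusted p = 0.568; 0.16 with the block). CDX2 was at 1.41 and 2.01 CPM in rescue, against 2.24 and 2.22 CPM in knockout (log2 -0.38, adjusted p = 0.918), and HNF4G differed by 0.21 on the log2 scale (adjusted p = 0.86). MUC13, a membrane mucin, was at 35.3 and 42.8 CPM in rescue, against 64.6 and 102 CPM in knockout, and passed with the block alone (log2 -1.05, adjusted p = 0.01015; without it 0.23). REG4 had no read in any library of line 1.

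**Figure D2:**
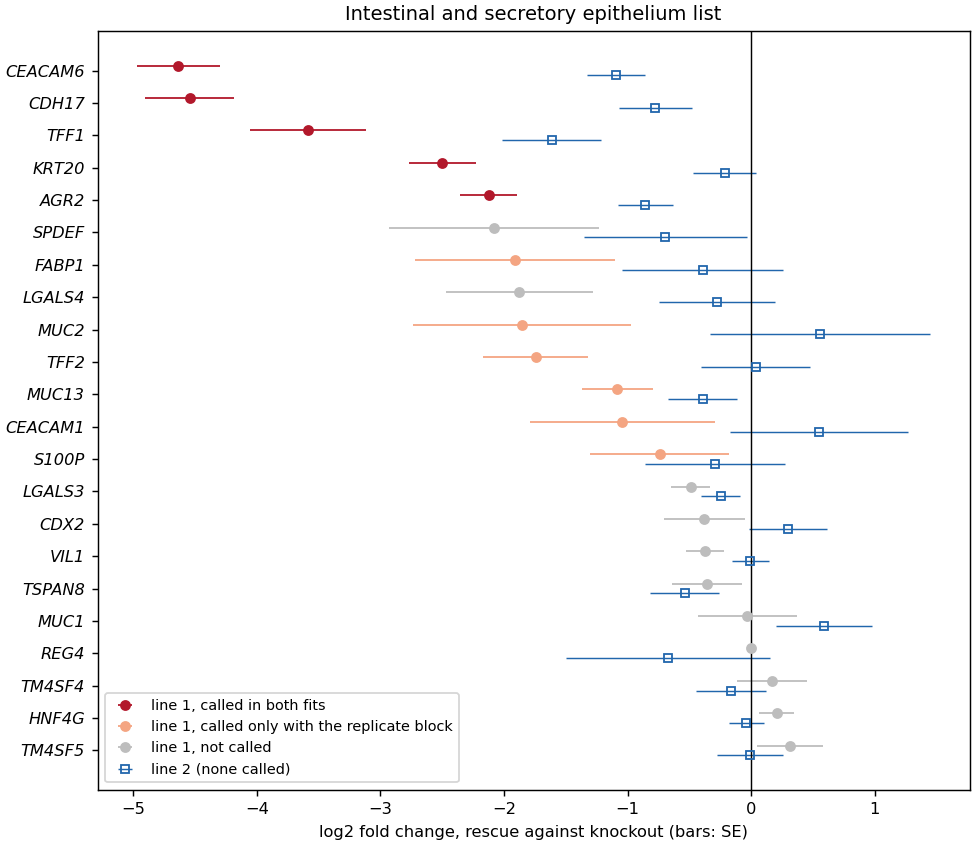
Log2 fold change of rescue against knockout, with SE, for the 22 tested genes of the intestinal and secretory list; filled points are line 1, coloured by whether the gene passed in both fits, with the block alone or in neither, and open squares are line 2. The 5 genes that passed in both fits lie between -4.63 and -2.12 in line 1, and no gene of the list passed in line 2; REG4 had no reads in line 1 and is drawn at 0.

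Further genes that fell are given here because of their values. GPX2, a glutathione peroxidase of the gastrointestinal lining, was at 3.99 and 3.36 CPM in rescue, against 20.9 and 20.03 CPM in knockout (log2 -2.46, SE 0.32, adjusted p = 0.0245). DPP4, a brush border peptidase, was at 2.13 and 2.26 CPM in rescue, against 10.2 and 9.42 CPM in knockout (log2 -2.15, adjusted p = 0.0115). GLP2R, the receptor of the gut hormone GLP-2, fell by 1.59 on the log2 scale (adjusted p = 0.0197). The membrane serine protease TMPRSS2 fell by 2.09 (adjusted p = 0.0122), and SPINT2, an inhibitor of such proteases, by 1.24 (adjusted p = 0.0122).

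Several other falls, taken by size or picked after their values were seen, encode adhesion or matrix proteins, while the adhesion gene NECTIN3 rose. LAMB3, the beta chain of the basement membrane laminin 332, was at 1.43 and 1.13 CPM in rescue, against 11.8 and 8.21 CPM in knockout (log2 -2.95, SE 0.34, adjusted p = 0.0153). ITGA6, a subunit of the integrins that bind laminin, was at 28.7 and 23.3 CPM in rescue, against 115 and 88.2 CPM in knockout (log2 -1.95, adjusted p = 0.0122). The netrin NTN4, a secreted protein of basement membranes, was at 0.783 and 0.424 CPM in rescue, against 13.7 and 6.23 CPM in knockout, where library 1 was the higher (log2 -4.00, SE 0.45, adjusted p = 0.0122). The matricellular protein SPARC was at 0.528 and 0.679 CPM in rescue, against 5.57 and 3.40 CPM in knockout (log2 -2.89, adjusted p = 0.0163). The cell adhesion molecule NRCAM was at 0.548 and 0.311 CPM in rescue, against 4.71 and 3.10 CPM in knockout (log2 -3.13, adjusted p = 0.0122). PPL, a desmosomal plakin, fell by 1.46 on the log2 scale (adjusted p = 0.0292). The desmosomal cadherin DSG2 passed with the block alone (log2 -2.20, adjusted p = 0.000625; without it 0.0562). For each gene of this group given by library, both rescue values were below both knockout values. These genes were chosen by the same libraries, so their separation is no further support.

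Among the remaining large falls, KRT19 (ENSG00000171345.9), a keratin of bile duct and other simple epithelia, was at 0.939 and 0.537 CPM in rescue, against 8.88 and 7.02 CPM in knockout (log2 -3.38, SE 0.40, adjusted p = 0.0162). SYT13, a synaptotagmin, was at 1.02 and 0.566 CPM in rescue, against 14.9 and 15.3 CPM in knockout (log2 -4.22, SE 0.33, adjusted p = 0.00526). Both genes were thus near 1 CPM or below wherever HKDC1 had been restored in line 1. GPRC5A, an orphan receptor, was at 2.72 and 1.72 CPM in rescue, against 15.5 and 16.3 CPM in knockout (log2 -2.82, adjusted p = 0.0115). CYP4F11, a cytochrome P450 that hydroxylates fatty acids, was at 0.411 and 0.509 CPM in rescue, against 3.92 and 5.25 CPM in knockout (log2 -3.31, adjusted p = 0.0238). The gene listed as AL590004.3 was at 0.235 and 0.198 CPM in rescue, against 2.26 and 2.10 CPM in knockout (log2 -3.30, adjusted p = 0.018). CEACAM6, CYP4F11 and KRT19 have close paralogs or pseudogenes, and how reads shared between copies were counted is not given in the sources used here.

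Rises were fewer and, HKDC1 apart, smaller, with a median of 1.72 over the 14. AFP (ENSG00000081051.3), alpha-fetoprotein of fetal liver and hepatoma, was at 31.0 and 74.6 CPM in rescue, against 8.15 and 7.28 CPM in knockout (log2 2.78, SE 0.44, adjusted p = 0.0484). Library 2 was the higher rescue library, and both were above both knockouts. NECTIN3, an immunoglobulin-type adhesion molecule, was at 6.556 and 6.504 CPM in rescue, against 1.36 and 1.56 CPM in knockout (log2 2.17, SE 0.28, adjusted p = 0.024). GUCY1A2, a subunit of soluble guanylate cyclase, was at 3.76 and 3.56 CPM in rescue, against 1.056 and 1.003 CPM in knockout (log2 1.84, adjusted p = 0.038). CDC20B rose by 1.89 on the log2 scale (adjusted p = 0.0359) and the transcriptional repressor ZBTB16 by 1.52 (adjusted p = 0.0391). GRIK2, a kainate receptor subunit, rose by 1.45 (adjusted p = 0.0292), and LRRC7, a postsynaptic scaffold protein, by 1.28 (adjusted p = 0.034).

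Genes with ZNF (zinc finger) symbols supplied 6 of the 14 rises and 0 of the 62 falls, and made up 539 of the 19766 genes tested (2.73%). ZNF716 was at 9.22 and 11.7 CPM in rescue, against 2.001 and 3.382 CPM in knockout (log2 1.97, SE 0.27, adjusted p = 0.0305). ZNF729 was at 14.9 and 13.5 CPM in rescue, against 4.13 and 5.81 CPM in knockout (log2 1.53, adjusted p = 0.033). ZNF723, ZNF90, ZNF98 and ZNF676 rose by 1.78, 1.67, 1.23 and 0.96 on the log2 scale (adjusted p = 0.0307, 0.0484, 0.0468 and 0.0484). All but ZNF716 lie on chromosome 19, where the family forms clusters of close copies, so their counts may share reads. This grouping was noticed after the values were seen, and over all 271 tested ZNF genes of chromosome 19 the median was -0.02, with 17 higher (6.27%) and 4 lower (1.48%) under the block, against 0.784% and 2.63% of all genes tested.

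**Figure D3:**
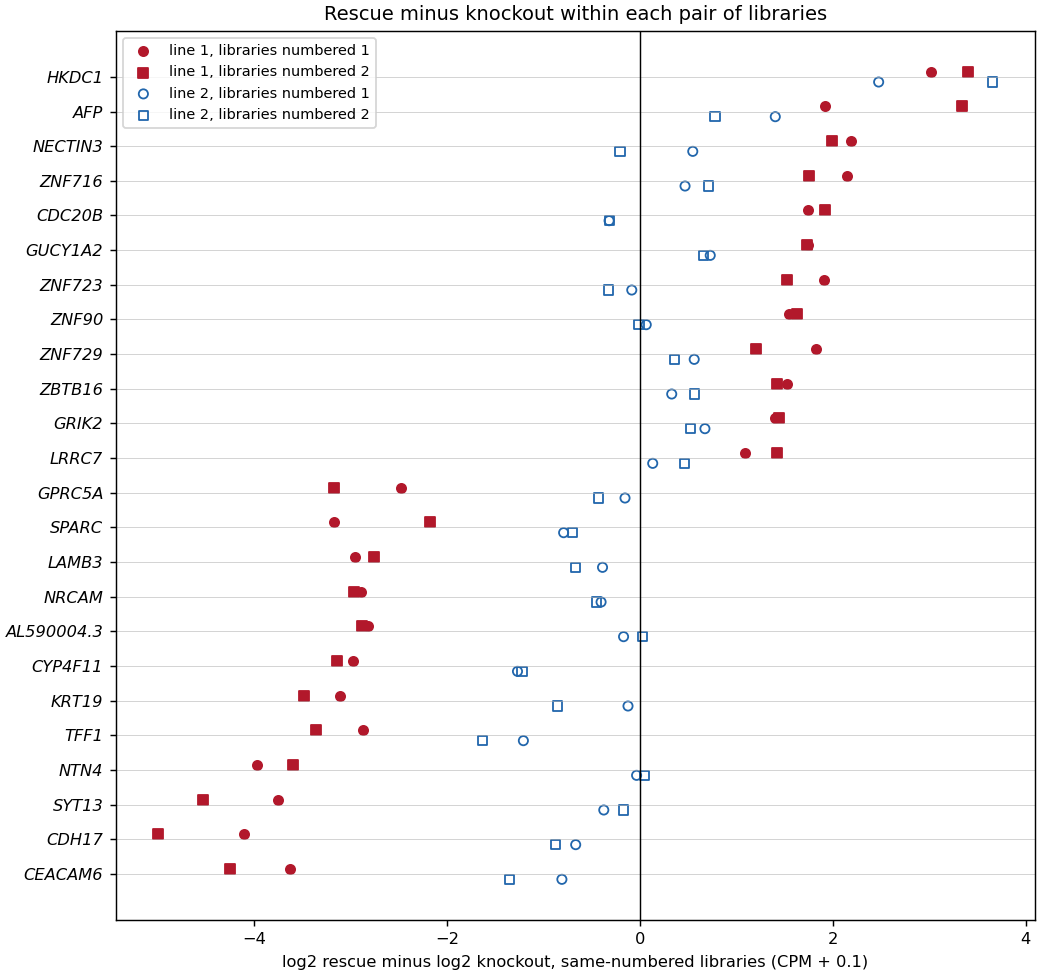
Log2 rescue minus log2 knockout between libraries of the same number, from CPM with 0.1 added, for the 12 largest rises and 12 largest falls; filled red symbols are line 1, open blue symbols line 2, circles libraries numbered 1 and squares libraries numbered 2. Both pairs of line 1 lie on the same side of 0 for every gene drawn, which follows from choosing genes whose groups did not overlap. For HKDC1 alone do the symbols of line 2 reach those of line 1.

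Line 2 had the same sign for most of these genes, and a smaller log2 fold change for all 76. The sign was shared by 63 of the 76 (82.9%), against 55.0% of all genes tested, while the median of the 62 genes that fell was -2.03 in line 1 and -0.28 in line 2, and that of the 14 that rose was 1.72 in line 1 and 0.45 in line 2. In line 2 itself 0 of 19766 genes passed in edgeR (356 at an unadjusted p under 0.05), and 12 passed with DESeq2. With the block 8 genes passed in line 2 (0.0405%; 0.0253% higher and 0.0152% lower), of which HKDC1, UCHL1 and MAGEC2 were among the 76. The difference between the lines was called for 0 genes without the block (727 at an unadjusted p under 0.05; 78 with DESeq2). With the block it was called for 111 genes (0.562%; 0.0607% higher in line 1 and 0.501% lower), among them 45 of the 76. The 76 were chosen for their size in line 1, so their smaller values in line 2 are by themselves no test of a weaker change.

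A first group of 21 genes had the same sign and an unadjusted p under 0.05 in line 2, both without and with the block. Its 6 rises were HKDC1, AFP, GRIK2, ZNF716, GUCY1A2 and ZNF676, and its 15 falls CEACAM6, CDH17, IGFL2-AS1, AGR2, UCHL1, SPARC, MAGEC2, CYP4F11, TFF1, GPX2, BEX1, CYP4F12, F2RL1, AKR1B1 and F2RL2. CDH17 was at 9.06 and 8.67 CPM in rescue of line 2, against 14.4 and 16.0 CPM in knockout of line 2 (log2 -0.78). The lines differed for CDH17 by -3.81 with the block (adjusted p = 0.00294). AGR2 was at 16.6 and 16.5 CPM in rescue of line 2, against 25.7 and 34.3 CPM in knockout of line 2 (log2 -0.86), and its difference between lines did not pass (-1.28 with the block, adjusted p = 0.1). CEACAM6 had a log2 fold change of -1.09 in line 2, TFF1 of -1.62 and AFP of 1.17. Among the falls of this group, UCHL1, a neuronal ubiquitin hydrolase, and the cancer-testis antigen MAGEC2 also passed in line 2 with the block. UCHL1 was at 34.8 and 28.4 CPM in rescue of line 1, against 82.0 and 82.6 CPM in knockout of line 1, and at 114 and 104 CPM in rescue of line 2, against 215 and 214 CPM in knockout of line 2. Its log2 fold changes were -1.37 in line 1 (adjusted p = 0.0122) and -0.97 in line 2 (adjusted p = 0.0287 with the block). MAGEC2 had -1.49 (adjusted p = 0.0199) and -1.07 (adjusted p = 0.0287 with the block).

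A second group of 42 genes had the same sign in line 2 without reaching an unadjusted p of 0.05 in the fit without the block. With the block, 1949 of all 19766 genes tested had an unadjusted p under 0.05 in line 2, with either sign. Of the second group 16 did: the rises ZNF729 and ZBTB16 and the falls S100A16, NRCAM, SLC52A3, ITGA6, TMPRSS2, LAMB3, KRT19, WFDC21P, PPL, TJP3, BACE2, SLC9A2, DUSP4 and JCAD. The 6 rises of this group were NECTIN3, ZNF729, LRRC7, ZBTB16, ZNF98 and ZNF90. Its 36 falls were SYT13, GDA, DPP4, S100A16, SLCO4A1, GPRC5A, NRCAM, KRT20, SPINT2, SLC52A3, PSD3, ITGA6, TMPRSS2, ARHGEF28, LAMB3, KRT19, AL590004.3, WFDC21P, RIMKLB, ARSJ, SH3RF2, PPL, TLDC2, HDGFL3, PAPSS2, SDR42E1, C1orf116, TJP3, BACE2, LIPH, CARMIL1, SLC9A2, DUSP4, IQGAP2, JCAD and PARM1. KRT20 was at 27.1 and 19.1 CPM in rescue of line 2, against 29.02 and 24.74 CPM in knockout of line 2 (log2 -0.22), and the lines differed by -2.23 with the block (adjusted p = 0.00516). KRT19 was far more abundant in line 2, at 211 and 107 CPM in rescue, against 230 and 194 CPM in knockout (log2 -0.41), and the lines differed by -2.91 (block, adjusted p = 0.00659). SYT13 was at 1.01 and 1.36 CPM in rescue of line 2, against 1.34 and 1.55 CPM in knockout of line 2, so that the knockout of line 1 alone stood high.

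The remaining 13 genes had the opposite sign in line 2. They were the rises ZNF723 and CDC20B and the falls NTN4, KIAA1217, GLP2R, CPE, ERBB4, TMEM184A, CSRNP3, KCTD15, MX2, GAS7 and TIMP1. For most the line 2 value was close to 0, as for NTN4 (0.01) and GLP2R (0.01). ERBB4, a receptor of the EGF receptor family, had an unadjusted p under 0.05 in the opposite direction, as did CPE, a prohormone-processing peptidase, with the block alone (log2 0.25). ERBB4 was at 0.0783 and 0.0566 CPM in rescue of line 1, at or near the floor, against 0.64 and 0.816 CPM in knockout of line 1 (log2 -3.34, adjusted p = 0.033). In line 2 it was at 1.09 and 1.28 CPM in rescue, against 0.349 and 0.407 CPM in knockout (log2 1.63, unadjusted p = 0.00156). The lines differed for ERBB4 by -4.95 with the block (adjusted p = 0.0124).

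**Figure D4:**
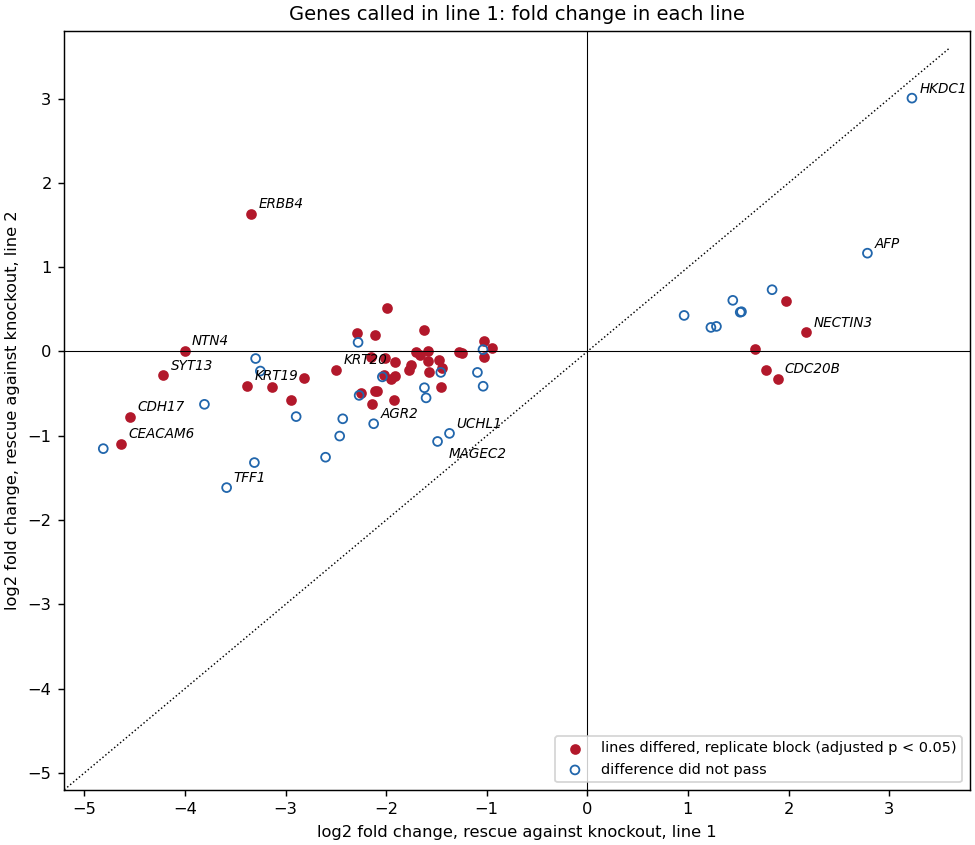
Log2 fold change of rescue against knockout in line 1 (horizontal) and line 2 (vertical) for the 76 genes called in line 1; the dotted line marks equal change, filled points are genes whose difference between the lines passed with the block (45) and open points the others. HKDC1, UCHL1 and MAGEC2 lie nearest to equal change, most falls lie close to 0 in line 2, and ERBB4 stands at 1.63.

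Against the mean of the 4 control libraries, rescue of line 1 stood farther away than knockout for most falling genes. For 53 of the 62 genes that fell, the rescue mean was farther from the control mean than the knockout mean was, and for 9 it was closer (log2 of CPM with 0.1 added). Rescue lay below all 4 controls for 50 of the 62, and knockout for 25. The 62 were chosen for low values in these rescue libraries, which by itself tends to place rescue low. No share over all genes was counted, and the control mean averages over pairs of controls that were unlike for many genes. CDH17 was at 21.6 to 27.8 CPM in controls, beside the 1.10 and 0.424 CPM of rescue and the 20.4 and 16.6 CPM of knockout. AGR2 was at 145 to 223 CPM in controls, above both states of both lines. For KRT20, controls 1 and 2 held 29.02 and 24.58 CPM, while controls 3 and 4 held 87.9 and 79.7 CPM, the controls falling into unlike pairs for this gene as for many others. For KRT19, rescue (0.939 and 0.537 CPM) was near controls 1 and 2 (0.501 and 0.657 CPM), while controls 3 and 4 held 38.6 and 34.2 CPM. Of the 13 rises other than HKDC1, 6 came closer to the control mean and 7 moved farther away, and rescue was above all controls for 8. NECTIN3 came closer, at 22.5 to 34.3 CPM in controls, while GUCY1A2 (0.0169 to 0.734 CPM in controls) and ZBTB16 (0.0358 to 0.254 CPM) moved farther away.

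Among hexokinases, HKDC1 alone passed. HK2, the form typical of tumours and muscle, was at 4.25 and 7.89 CPM in rescue, against 15.8 and 22.4 CPM in knockout, with separate groups (log2 -1.65, SE 0.33). It did not pass without the block (adjusted p = 0.103) and passed with it (adjusted p = 0.000579). In line 2 HK2 was at 18.6 and 23.8 CPM in rescue, against 27.2 and 40.5 CPM in knockout (log2 -0.68, adjusted p = 0.238 with the block), and its difference between lines did not pass (adjusted p = 0.0629 with the block). HK1 was at 19.1 and 23.0 CPM in rescue, against 21.2 and 22.2 CPM in knockout, and its groups overlapped (log2 -0.03, SE 0.19). HK3 was too low to test. The beta-catenin gene CTNNB1 was at 234 and 214 CPM in rescue, against 289 and 248 CPM in knockout (log2 -0.25, SE 0.28, adjusted p = 0.96). Its protein was not measured here.

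Of 29 hepatocyte genes 27 were tested, AFP alone passed higher and 0 passed lower, and 23 had a positive log2 fold change, with a median of 0.285 in line 1 and 0.04 in line 2. With the block ALB, RBP4 (the plasma carrier of retinol) and CPS1, the first enzyme of the urea cycle, also passed higher and CYP3A5 lower. ALB was at 49.4 and 63.0 CPM in rescue, against 28.1 and 24.8 CPM in knockout (log2 1.10, adjusted p = 0.0663; 0.00381 with the block). RBP4 was at 147 and 213 CPM in rescue, against 85.9 and 94.8 CPM in knockout (log2 1.004, adjusted p = 0.204; 0.00482 with the block). RBP4 also passed in line 2 with the block, where it was at 11.03 and 18.12 CPM in rescue, against 5.54 and 6.69 CPM in knockout (log2 1.23, adjusted p = 0.0377). APOB passed higher in line 2 alone, with the block (log2 1.11, adjusted p = 0.0417). GPC3, an oncofetal proteoglycan of hepatoma, matched between the lines, with block values of 1.08 in line 1 (adjusted p = 0.00148) and 1.06 in line 2 (adjusted p = 0.0287). The hepatocyte factor HNF4A (log2 0.09) did not pass in either fit.

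Bile duct and progenitor genes were divided. Of 11 tested, KRT19 passed lower and 0 higher, and with the block 3 were higher and 5 lower, with a median of -0.56 in line 1 and 0.15 in line 2. CFTR, the chloride channel of ducts, was at 490 and 486 CPM in rescue, against 309 and 283 CPM in knockout (log2 0.73, adjusted p = 0.01015 with the block; 0.375 without). KRT23 was at 35.6 and 51.3 CPM in rescue of line 1, against 89.9 and 79.7 CPM in knockout of line 1 (log2 -0.96, adjusted p = 0.107; -0.98 and 0.01465 with the block). In line 2 KRT23 went the other way, at 63.4 and 61.2 CPM in rescue, against 28.95 and 35.2 CPM in knockout (log2 0.96), and the lines differed by -1.94 (block, adjusted p = 0.0112).

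The lists nearest to the series title gave no call without the block. Of 14 tested stem cell markers 0 passed, and with the block PROM1, which encodes CD133, was higher and CD44 and EPCAM lower. PROM1 was at 49.8 and 45.0 CPM in rescue, against 26.3 and 24.6 CPM in knockout (log2 0.91, adjusted p = 0.0795; 0.0038 with the block). EPCAM was at 12.4 and 9.87 CPM in rescue, against 18.4 and 14.9 CPM in knockout (log2 -0.57, adjusted p = 0.322; 0.0259 with the block). Of 15 tested Wnt and beta-catenin targets 0 passed, with medians of -0.14 in line 1 and -0.09 in line 2, and with the block the transcription factor LEF1 alone was higher. Of 23 hypoxia genes outside glycolysis 0 passed, and with the block NDRG1 and the carbonic anhydrase CA12 were lower. NDRG1 was at 1.10 and 2.54 CPM in rescue, against 6.51 and 11.3 CPM in knockout (log2 -2.31, adjusted p = 0.19; 0.000553 with the block), while line 2 had a log2 fold change of 0.10. Of 22 glycolysis genes 0 passed, with a median of -0.06; with the block the lactate carrier SLC16A3, PFKP and ALDOC were lower and the glucose carrier SLC2A2 higher.

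Of the 14 remaining lists, 12 had no call without the block. Epithelial junction genes had 1 of 15, CDH17, and mesenchymal genes 1 of 12, SPARC; with the block DSG2, CLDN4 and CLDN3 joined the first, and, among others, VIM (lower) and CDH2 (higher) the second. CDH2 (N-cadherin) was at 125 and 123 CPM in rescue, against 58.5 and 52.5 CPM in knockout (log2 1.17, adjusted p = 0.0531; 0.000566 with the block). VIM (vimentin) was at 89.4 and 53.7 CPM in rescue, against 235 and 128 CPM in knockout (log2 -1.34, adjusted p = 0.235; 0.00064 with the block). All 20 cell cycle genes had a positive log2 fold change (median 0.38 in line 1, -0.17 in line 2), and MKI67 alone passed, with the block. Interferon-stimulated genes had 0 calls of 15 and 4 lower with the block (OAS1, IFI6, OAS2 and IFI27), with medians of -0.38 in line 1 and 0.06 in line 2. The ATF4 list (21 of 22 negative, median -0.28), chemokines and NF-kB targets (17 of 18 negative, -0.41), mitochondrially encoded genes (12 of 13 negative, -0.29) and cholesterol synthesis (20 of 22 positive, 0.20) had 0 calls each, and with the block ATF5, none, MT-ND1 and INSIG1. Endoplasmic reticulum chaperones had a median of -0.01 and no call in either fit. YAP/TAZ targets had a median of 0.003, with 2 higher and 3 lower under the block, where the median was -0.017. In the MondoA/ChREBP list ARRDC4, an arrestin-related gene of glucose sensing, was at 1.96 and 3.65 CPM in rescue, against 0.72 and 0.536 CPM in knockout (log2 2.14, adjusted p = 0.247; 0.0132 with the block).

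**Figure D5:**
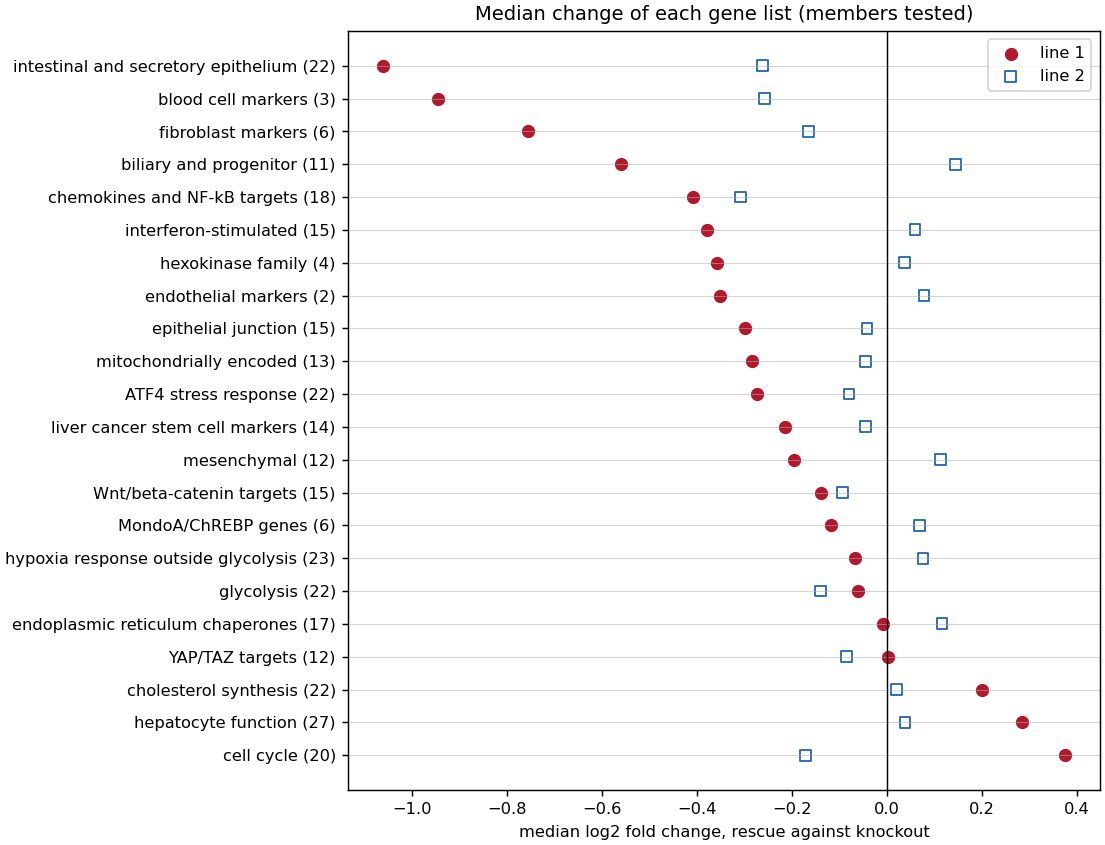
Median log2 fold change of rescue against knockout for each gene list, with the number of members tested in brackets; filled circles are line 1 and open squares line 2. The intestinal and secretory list has the lowest median in line 1 (-1.06; -0.89 without CDH17 and AGR2, above the -0.95 of the blood cell markers) and cell cycle genes the highest (0.38), beside a median of 0.001 over all genes tested.

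Of the markers of other cell types, none passed without the block and LYZ alone passed with it. The 9 fibroblast markers summed to 4.46 to 5.94 CPM in rescue and 5.35 to 5.78 CPM in knockout, with COL1A2 and FAP at the floor. PDGFRB held much of that sum (2.72 and 4.47 CPM in rescue, against 2.40 and 2.87 CPM in knockout), COL1A1, COL3A1, LUM and PDGFRA had lower values in both rescue libraries, and the median of the 6 tested was -0.76. The 7 endothelial markers summed to 0.311 to 0.47 CPM in rescue and 0.63 to 0.64 CPM in knockout, with EMCN, ERG, KDR and TEK at the floor. The 9 blood cell markers summed to 331 to 342 CPM in rescue and 600 to 745 CPM in knockout, nearly all of it LYZ (lysozyme), which glandular epithelium also makes. LYZ was at 329 and 341 CPM in rescue, against 742 and 598 CPM in knockout (log2 -0.99, adjusted p = 0.108; 0.00508 with the block), while PTPRC, CD3E, CD68 and HBB were at the floor. The part of LYZ-expressing or fibroblast-like cells in the fall of the intestinal genes was not tested.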

How the data were processed

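Each library's deposited file held raw counts of reads per gene, which the authors made against GRCh37 using STAR 2.6.0b, per the submitters' processing notes. Trimming, filters and the treatment of reads shared between gene copies are not given in the sources used here. Column 4, the stranded column, was used, since its total was 19.8 to 21.1 times that of the other strand, and the 4 lines of unassigned reads (23.2% to 31.5% of reads) were left out. Of 57820 Ensembl identifiers, 51184 were given a symbol from reference tables, and genes without one held 4.84% of the counts. No identifier was given the symbols TXNIP, CD24 or PECAM1 by these tables, so no value is given under those names. These genes may be among the identifiers left without a symbol. Some items are not reported here. Coordinates are printed for promoters only, since the reference tables are on another build than the counts.

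Groups followed the sample titles. In R 4.3.3 with edgeR 4.0.16, the 8 knockout and rescue libraries were fitted as 4 groups, with filterByExpr, TMM scaling and quasi-likelihood tests of rescue against knockout in line 1, in line 2, and of the difference (line 1 minus line 2). Benjamini-Hochberg adjustment ran over the whole set of 19766 genes, and calls needed an adjusted p under 0.05. Replicates differed beyond counting noise in 32.6% to 71.1% of genes, and the common biological coefficient of variation was 20.8% (11.2% with the block). CPM used TMM factors over all 12 libraries. Deviations of same-numbered libraries from their group means correlated at 0.632 in line 1 and 0.72 in line 2 over 10131 genes, so the numbers were taken to pair the samples, and fits with line and number as a replicate block are given where they change a call. On simulated counts the fit without the block recovered 45% of changes of 1 and 96% of changes of 2 on the log2 scale in line 1 (100 each, 19251 genes), and 90% and 100% with the block (19141 genes). False calls were 6 without the block and 12 with it. Counts for the blocked fit were simulated with a smaller spread and an added number effect, so these shares do not compare the 2 fits.

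Named genes were the 12 largest rises and falls among called genes with a symbol, at least 2 CPM in the higher group and groups that did not overlap, genes called in both lines or with a called difference (0 each), up to 3 called members per list, and CDH17, AGR2, HKDC1, HK1, HK2 and CTNNB1. Further genes are given with values, picked once those had been seen. The libraries, the 22 lists and the rule were chosen with earlier results of these data known. Lists are described by counts and medians, with no test. Alternatives were the block, RLE scaling, DESeq2 1.42.0, no filter, unstranded counts, all 12 libraries in 5 groups, line 1 alone, groups by the genotype field, leaving out each library in turn and, added after the data were seen, DESeq2 with the block.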

Additional observations from a re-analysis of the deposited data

Results flagged for a closer look

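The difference in log2 fold change between the lines (line 1 minus line 2) was tested for each of 61 named genes with the replicate block. In edgeR 27 of them passed an adjusted p of 0.05, against 111 of all 19766 genes tested (0.562%), and none passed without the block. Most named genes were picked by their values in these same libraries, so the larger share is no separate result. Among rises in line 1 the differences were 2.004 for NECTIN3, 1.41 for ZNF716, 2.19 for CDC20B, 2.002 for ZNF723, 1.63 for ZNF90 and 0.97 for CDH2. Among the largest falls they were -3.51 for CEACAM6, -3.81 for CDH17, -3.94 for SYT13, -4.03 for NTN4, -2.91 for KRT19, -2.74 for NRCAM, -2.39 for LAMB3, -2.53 for GPRC5A and -2.23 for KRT20. Genes chosen after their values were seen differed by -2.10 (DPP4), -1.61 (GLP2R), -1.64 (TMPRSS2), -1.23 (SPINT2), -1.63 (ITGA6), -1.04 (PPL), -4.95 (ERBB4), -2.39 (DSG2), -2.52 (NDRG1), -1.03 (OAS1), -1.07 (IFI6) and -1.94 (KRT23). The cause of these differences was not tested.

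HK1 was at 28.1 CPM in control 4, apart from the other controls, which were at 20.4, 20.9 and 20.6 CPM. Chance sets a library apart in this way in about 1 in 20 groups of 4.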

How the results depend on the processing

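For rescue against knockout, line 1 gave 76 calls. It gave 675 with the replicate block, 397 with DESeq2, 902 with DESeq2 and the block, 661 with no filter on low counts, 40 with 12 libraries in 5 groups, 46 with line 1 libraries alone and 1829 with line 1 alone and the block. All 76 kept call and sign with the block, with DESeq2 and with no filter, against 68 under RLE scaling, 72 with unstranded counts and 26 with 5 groups. With groups by the genotype field 0 genes passed and 24 of the 76 changed sign. Those groups set libraries numbered 2 against those numbered 1, with rescue and knockout on both sides, so they do not test rescue. Leaving out each library in turn gave 1 to 218 calls. Line 2 gave 0 calls, 8 with the block, 12 with DESeq2, 48 with no filter, 1 with 5 groups, 95 with DESeq2 and the block, and 0 to 1 without a library. The difference between lines gave 0 calls, 111 with the block, 78 with DESeq2, 216 with no filter, 307 with DESeq2 and the block, and 0 to 8 without a library. The cause of these shifts was not tested. For HKDC1 in line 1 the log2 fold change was 3.05 to 3.38 without a library, missing the threshold without each library of line 1, and 0.29 by the genotype field. The numbers pair the samples, and blocked values are given beside the calls and the line 2 groups.

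Among named genes, signs turned by the genotype field for CEACAM6 (0.33), CYP4F11 (0.41), AGR2 (0.18), HK1 (0.17), HK2 (0.60), ERBB4 (0.29), MUC13 (0.54), FABP1 (1.72), CEACAM1 (0.88), NDRG1 (0.86), SLC16A3 (1.66), OAS1 (0.32), IFI6 (0.11), EMILIN2 (0.0423), KRT23 (0.0666), GUCY1A2 (-0.0723), ZNF723 (-0.20), ZBTB16 (-0.0145), CDH2 (-0.0539) and CFTR (-0.0484). These values compare libraries numbered 2 with those numbered 1 and say nothing of rescue. HK1 in line 1 ranged from -0.18 to 0.10 without a library, positive without rescue 1. APOB ranged from -0.22 (without rescue 2) to 0.99, and was at -0.0452 without knockout 1. The YAP/TAZ median turned to -0.0174 with the block. None of these 3 was called in line 1. TMM, RLE and DESeq2 scaling left the median of all genes within 0.003 of 0. Genes near 3 reads, such as ERBB4 and CEACAM6 in rescue, are limited by depth.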

Other observations

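With the replicate block, 8 genes passed in line 2 and 6 of them also passed in line 1 with the same sign, against 675 calls in line 1. The rises shared by both lines were HKDC1, GPC3, RBP4 and ENSG00000117289.7, an identifier with no symbol in the tables used, and the shared falls were UCHL1 and MAGEC2. ENSG00000117289.7 was at 6.77 and 9.90 CPM in rescue of line 1, against 1.73 and 2.17 CPM in knockout of line 1, and at 2.93 and 17.05 CPM in rescue of line 2, against 0.66 and 2.54 CPM in knockout of line 2. Its log2 fold changes with the block were 2.09 in line 1 (adjusted p = 0.000903) and 2.52 in line 2 (adjusted p = 0.00702). Controls held 11.5 to 17.03 CPM of it, above both rescue libraries of line 1. APOB and EMILIN2, an extracellular matrix glycoprotein, were called in line 2 alone. With the block EMILIN2 had -0.43 in line 1 and -1.52 in line 2, and its difference between lines did not pass (adjusted p = 0.0575). APOB had 0.39 in line 1 (adjusted p = 0.166) and 1.11 in line 2 (adjusted p = 0.0417), and its difference did not pass either (adjusted p = 0.177).

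APOB, the structural protein of liver lipoproteins, set the lines apart in level. It was at 13669 and 27623 CPM in rescue of line 1, against 10432 and 21509 CPM in knockout of line 1, while rescue of line 2 held 38.9 and 114 CPM, against 20.2 and 47.8 CPM in knockout of line 2. In all 4 groups the library numbered 2 was the higher. Controls held 4821 to 6897 CPM. RBP4 was likewise higher in both states of line 1 than in either state of line 2. These genes were chosen after their values were seen.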
